A study of Homo sapiens with 12 samples.

Results

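The transcripts of 9 genes around the fusion kinase of chronic myeloid leukemia were followed in 12 RNA libraries. The genes are BCR and ABL1, the partners of the fusion, ABL2, the relative of ABL1, the adaptors CRKL and GAB2, and the SRC family kinases LYN, FYN, SRC and YES1. They were taken by symbol from a count table of 19447 genes, and all 9 were found. K562, an established human line of that leukemia, carries the BCR-ABL fusion. The 4 groups, with 3 libraries each, were untreated K562, K562 given lycorine (K562+L), untreated K562/IM and K562/IM labelled as given lycorine (K562/IM+L). Untreated here means without lycorine, and the labels do not say whether imatinib was present in K562/IM at harvest. Lycorine is a plant alkaloid of the Amaryllidaceae. K562/IM is 1 line that the study derived from K562 by stepwise exposure to imatinib (IM), the inhibitor of BCR-ABL, and then maintained in imatinib, so that line and drug history cannot be told apart. The time of exposure to lycorine before sequencing is not given in the sources used here, and nothing in the labels says whether the 3 libraries of a group came from separate cultures. The p-values therefore measure the spread between these libraries, which may be technical.

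BCR-ABL arises when a translocation joins the front of BCR to the kinase part of ABL1, and the fused kinase stays active without a signal. It binds or phosphorylates adaptors such as CRKL, a preferred substrate, and GAB2, which is recruited through GRB2 and links the kinase to the RAS and PI3K pathways. SRC family kinases are membrane-bound tyrosine kinases that act downstream of BCR-ABL in myeloid cells, and LYN is known for carrying signals in cells that survive imatinib. A count per gene symbol adds reads of the fusion to those of normal BCR and normal ABL1, and the table does not separate them. In bulk samples such as these, fewer cells of a type and less RNA per cell cannot be told apart.

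Libraries held 82779101 to 87381704 counts in K562, 88481508 to 107344598 in K562+L, 75935140 to 98445779 in K562/IM and 75093844 to 92154227 in K562/IM+L, so that every K562+L library held more counts than any K562 library. Levels are given in CPM, the count scaled to the TMM-normalized library size, and levels of different genes are compared in CPM per kb of annotated exon. Changes are log2 fold changes with their standard error (SE) from the quasi-likelihood test of edgeR, adjusted over all genes tested by the Benjamini-Hochberg method, and a gene passed at an adjusted p under 0.05. The sample titles and the study use different group names for K562/IM+L, so that its libraries are written below as K562/IM+L-labelled. In those libraries ABCB1, which encodes the drug efflux pump P-gp, stood at 0.490 to 1.06 CPM, against 21.9 to 25.8 CPM in K562/IM and 1.68 to 1.86 CPM in K562. All 12 erythroid marker genes examined had a mean over 1 CPM in every group, and their summed level was 6477 to 8997 CPM in K562, 4387 to 5030 CPM in K562+L, 3078 to 3328 CPM in K562/IM and 33230 to 46738 CPM in K562/IM+L-labelled libraries. The part of lycorine, and of any other difference of the cells, in what sets K562/IM+L-labelled libraries apart from K562/IM was not tested.

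Promoters are shown for 1 or 2 genes of each pattern described below, namely GAB2 and YES1, which were lower in K562/IM+L-labelled libraries, FYN, which was higher there, and BCR, which was higher in K562+L. Sequences 250 bases before to 50 bases after a listed start, 1 for each gene, were taken from RefSeq (GRCh38.p14), where 7 of the 9 genes matched. The windows of ABL1 (chr9:130835004-130835303) and ABL2 (chr1:179143027-179143326) lie well inside those genes. Counts over the 7 promoters below thus include 2 windows away from the outermost start of the gene. SRC and LYN are named only. Capitals mark the GC box, the letters GGGCGG or their reverse complement CCGCCC, to which SP family factors bind. The GAB2 window lies at chr11:78417771-78418070 on the minus strand, YES1 at chr18:812193-812492 on the minus strand, FYN at chr6:111873403-111873702 on the minus strand and BCR at chr22:23180259-23180558 on the plus strand.
GAB2: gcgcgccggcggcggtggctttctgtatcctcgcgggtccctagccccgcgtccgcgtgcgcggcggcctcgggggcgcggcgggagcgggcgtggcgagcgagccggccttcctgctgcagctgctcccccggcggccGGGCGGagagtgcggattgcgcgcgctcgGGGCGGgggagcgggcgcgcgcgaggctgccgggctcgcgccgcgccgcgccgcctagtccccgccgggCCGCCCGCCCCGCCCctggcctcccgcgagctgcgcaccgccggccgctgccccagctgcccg
YES1: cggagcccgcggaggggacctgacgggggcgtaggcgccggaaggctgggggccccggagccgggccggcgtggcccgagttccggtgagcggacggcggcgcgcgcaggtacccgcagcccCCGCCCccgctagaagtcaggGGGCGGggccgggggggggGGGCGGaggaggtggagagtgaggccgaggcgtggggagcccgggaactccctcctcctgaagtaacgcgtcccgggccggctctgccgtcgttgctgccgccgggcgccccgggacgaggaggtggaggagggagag
FYN: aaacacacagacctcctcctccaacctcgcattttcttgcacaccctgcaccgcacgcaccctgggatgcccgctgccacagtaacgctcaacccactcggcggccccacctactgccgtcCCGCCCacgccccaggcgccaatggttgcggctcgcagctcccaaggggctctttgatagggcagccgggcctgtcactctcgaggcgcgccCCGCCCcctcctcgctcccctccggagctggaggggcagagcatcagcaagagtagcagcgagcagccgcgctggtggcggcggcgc
BCR: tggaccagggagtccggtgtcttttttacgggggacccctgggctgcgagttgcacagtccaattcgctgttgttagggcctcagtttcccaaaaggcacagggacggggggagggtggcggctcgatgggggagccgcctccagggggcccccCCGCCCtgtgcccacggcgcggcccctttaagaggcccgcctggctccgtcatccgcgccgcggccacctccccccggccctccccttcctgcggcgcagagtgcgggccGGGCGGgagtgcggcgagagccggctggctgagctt
GAB2 held 5 GC boxes, some of them overlapping, YES1 held 3, and FYN and BCR held 2 each. At least 1 GC box was found in 5 of the 7 promoters, against 45.0% of all 35116 promoters in the table, and 3 or more in 15.8% of all. The GC content was 84.0% for GAB2, 78.7% for YES1, 71.7% for BCR and 69.0% for FYN, against a median of 58.7% over all promoters. The CCAAT box, CCAAT or ATTGG, occurred in 5 of 7 against 34.6% of all. AGATAA, a motif of the erythroid GATA factors, was searched on both strands and occurred in 0 of 7 against 10.3% of all, and TTCNNNGAA, a motif of STAT factors, in 0 of 7 against 7.66%. A match of letters is a description of the window and not a binding site.

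Per kb of exon, CRKL was the most abundant of the 9 transcripts in untreated K562, with a mean of 98.2 CPM per kb. ABL1 followed at 44.5, YES1 at 25.9, LYN at 19.3, GAB2 at 11.98, BCR at 7.45, FYN at 5.06, ABL2 at 3.33 and SRC at 0.180 CPM per kb. ABL1 exceeded BCR in each of the 12 libraries, by a ratio per kb of 3.48 to 9.97. The length used joins all annotated exons of a gene, 12.4 kb for BCR and 6.28 kb for ABL1. The order and the ratio depend on these lengths, and the transcript forms present were not examined.

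**Figure D1:**
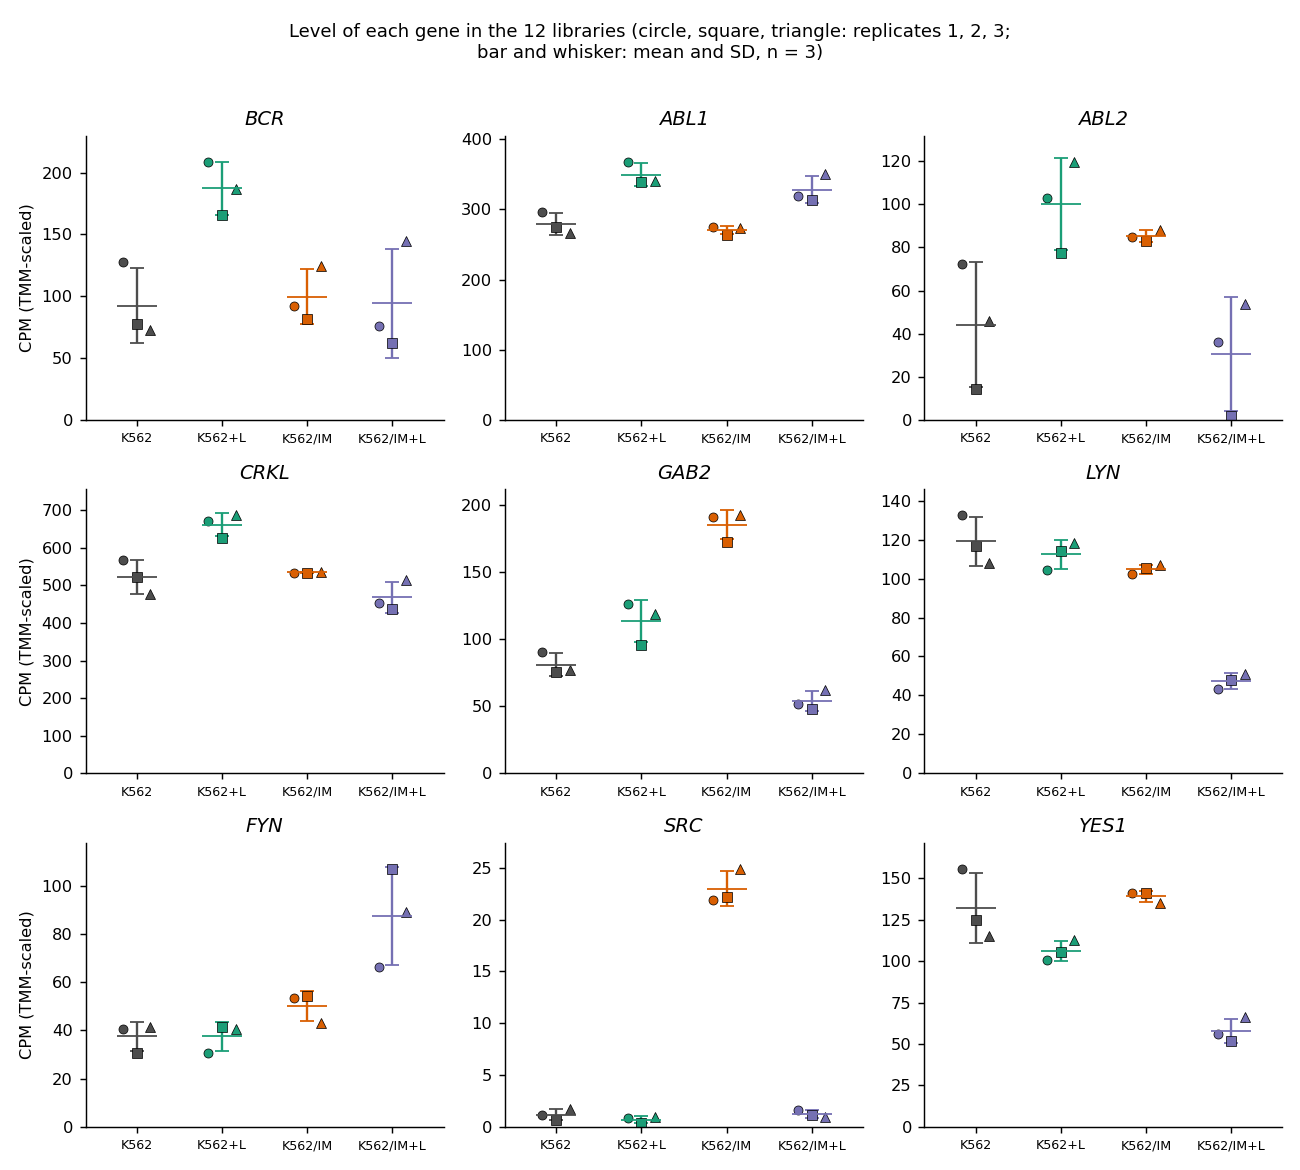
Level of each of the 9 genes in CPM (vertical axis, linear, starting at 0) in the 4 groups (horizontal axis), with 1 symbol per library and the mean and SD of 3 libraries as bar and whisker. GAB2 and SRC stand highest in K562/IM, FYN in K562/IM+L-labelled libraries, and BCR in K562+L, while LYN and YES1 are lowest in K562/IM+L-labelled libraries.

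In parental K562, lycorine was accompanied by higher levels of both fusion partners and both adaptors and by no passing change among the SRC family kinases. Of the 9 genes, 4 rose and 0 fell, where 37.3% of the 12927 genes tested passed, 18.2% higher and 19% lower. A count of 4 passing of 9 is near the share of all genes, and only the call of BCR held whichever library was left out. BCR alone also exceeded an absolute log2 fold change of 1, as did 6.39% of all genes tested. The median change of the 9 was 0.32, against -0.00012 over all genes tested.

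BCR encodes a protein with kinase, RhoGEF and RhoGAP parts, and its gene lies on chromosome 22 from 23179704 to 23318037 (GRCh38, as are all gene positions here, from GENCODE 29). Its level was 127, 77.3 and 72.4 CPM in the 3 K562 libraries and 209, 166 and 187 CPM in K562+L. Every treated library stood above every untreated one. BCR rose by 1.02 on the log2 scale (SE 0.213, adjusted p = 0.00859). It passed in each of the 6 fits that left out 1 library.

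ABL1, the tyrosine kinase whose catalytic part the fusion carries, lies on chromosome 9 from 130713946 to 130887675. It stood at 297, 276 and 266 CPM in K562 and at 368, 339 and 341 CPM in K562+L. The groups did not overlap, and ABL1 rose by 0.32 (log2, SE 0.0803, adjusted p = 0.0170). CRKL, on chromosome 22 from 20917426 to 20953749, went from 568, 521 and 479 CPM to 672, 627 and 687 CPM and rose by 0.34 (log2, SE 0.0867, adjusted p = 0.0181). GAB2, on chromosome 11 from 78215297 to 78418348, went from 90.9, 75.4 and 76.9 CPM to 126, 96.0 and 119 CPM and rose by 0.49 (log2, SE 0.128, adjusted p = 0.0198). Libraries of the compared groups did not overlap for any of these genes, which was so for 51.5% of all genes tested. The calls of ABL1, CRKL and GAB2 passed in 4, 3 and 2 of the 6 fits with 1 library left out. The count of passing genes fell from 4 to 1, BCR alone, without K562 replicate 2 or without K562+L replicate 1, and to 2 without K562+L replicate 3.

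ABL2, which encodes the ABL-related kinase ARG, was the least even of the 9 genes between replicates. It lies on chromosome 1 from 179099327 to 179229684. It stood at 72.3, 14.3 and 45.8 CPM in K562 and at 103, 77.6 and 120 CPM in K562+L. All treated libraries were above all untreated ones, but the change of 1.18 (log2, SE 0.481) did not pass (adjusted p = 0.0871). YES1 was also apart between the groups and did not pass, at 156, 125 and 116 CPM in K562 and 101, 106 and 113 CPM in K562+L, a change of -0.31 (log2, SE 0.123, adjusted p = 0.0788), though it passed in 3 of 8 other fits that kept all libraries.

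For LYN, FYN and SRC the libraries of K562 and K562+L overlapped. LYN, which signals in B cells and myeloid cells, stood at 133, 117 and 108 CPM in K562 and 104, 114 and 119 CPM in K562+L, a change of -0.084 (log2, 95% interval -0.32 to 0.15). FYN stood at 40.4, 30.6 and 41.4 CPM in K562 and 30.7, 41.3 and 40.4 CPM in K562+L, a change of 0.00010 (95% interval -0.36 to 0.36). SRC was low in both, with 90, 57 and 133 counts in K562 and 73, 28 and 99 counts in K562+L, and its change of -0.72 had a 95% interval from -1.82 to 0.39. The interval of SRC was the widest of these.

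Between the untreated lines the main differences lay in SRC and GAB2. Of the 9 genes, 3 were higher and 0 lower in K562/IM than in K562, where 57.1% of the 13406 genes tested passed, 30.1% higher and 27.1% lower. Of the 9, 2 exceeded an absolute log2 fold change of 1 as well, against 19.1% of all. The median change of the 9 was 0.11, against 0.042 over all genes tested.

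SRC, the kinase that gives the family its name, lies on chromosome 20 from 37344685 to 37406050. It stood at 1.104, 0.679 and 1.71 CPM in K562 and at 21.9, 22.2 and 24.9 CPM in K562/IM, corresponding to 1828, 2132 and 2675 counts. It was higher by 4.31 on the log2 scale in K562/IM (SE 0.292, adjusted p = 1.76e-05), and every K562/IM library was far above every K562 library. GAB2 stood at 191, 173 and 193 CPM in K562/IM, above the 75.4 to 90.9 CPM of K562. It was higher by 1.19 (log2, SE 0.0954, adjusted p = 4e-05).

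FYN lies on chromosome 6 from 111660332 to 111873452. Its level was 40.4, 30.6 and 41.4 CPM in K562 and 53.6, 54.1 and 42.9 CPM in K562/IM, so that the groups were narrowly apart. FYN was higher by 0.42 (log2, SE 0.142, adjusted p = 0.0349), a call that did not pass in 3 of the 6 fits with 1 library left out, those without K562 replicate 2, K562/IM replicate 1 or K562/IM replicate 2. Libraries of these groups did not overlap for 66.6% of all genes tested.

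The fusion partners and CRKL did not pass between the lines. BCR differed by 0.11 (log2, 95% interval -0.45 to 0.66), ABL1 by -0.047 (95% interval -0.21 to 0.11) and CRKL by 0.032 (adjusted p = 0.740). LYN stood at 102, 105 and 107 CPM in K562/IM, a difference of -0.18 (log2, SE 0.0888, adjusted p = 0.111), and YES1 at 141, 141 and 135 CPM, a difference of 0.076 (adjusted p = 0.590). ABL2 was even in K562/IM at 84.7, 83.0 and 88.1 CPM, above all 3 K562 libraries, and its difference of 0.95 did not pass (log2, SE 0.470, adjusted p = 0.119). Without K562 replicate 1, ABL2 and YES1 passed as well and the count became 5.

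Some markers of other cell types moved with this comparison. The summed level of 5 T cell markers was 21.99 to 23.6 CPM in K562/IM against 2.05 to 3.05 CPM in K562, of which CD3D made up a mean of 22.01 CPM, and that of 5 fibroblast markers was 19.8 to 24.9 CPM against 0.797 to 1.15 CPM, with COL1A2 at 17.1 CPM and PDGFRA at 0. The 5 B cell markers summed to 2.05 to 2.79 CPM in K562/IM, with MS4A1 and PAX5 at 0, against 0.644 to 1.21 CPM in K562. The 6 monocyte and granulocyte markers summed to 162 to 171 CPM, against 109 to 115 CPM in K562, nearly all of it LYZ, with ELANE and S100A8 at 0. The 4 epithelial markers summed to 186 to 191 CPM in K562/IM and 182 to 219 CPM in K562. Of these, EPCAM had a mean of 46.3 CPM in K562/IM against 128 CPM in K562, and KRT19 142 CPM against 74.7 CPM. The part of these genes in the differences of SRC, GAB2 and FYN was not tested.

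**Figure D2:**
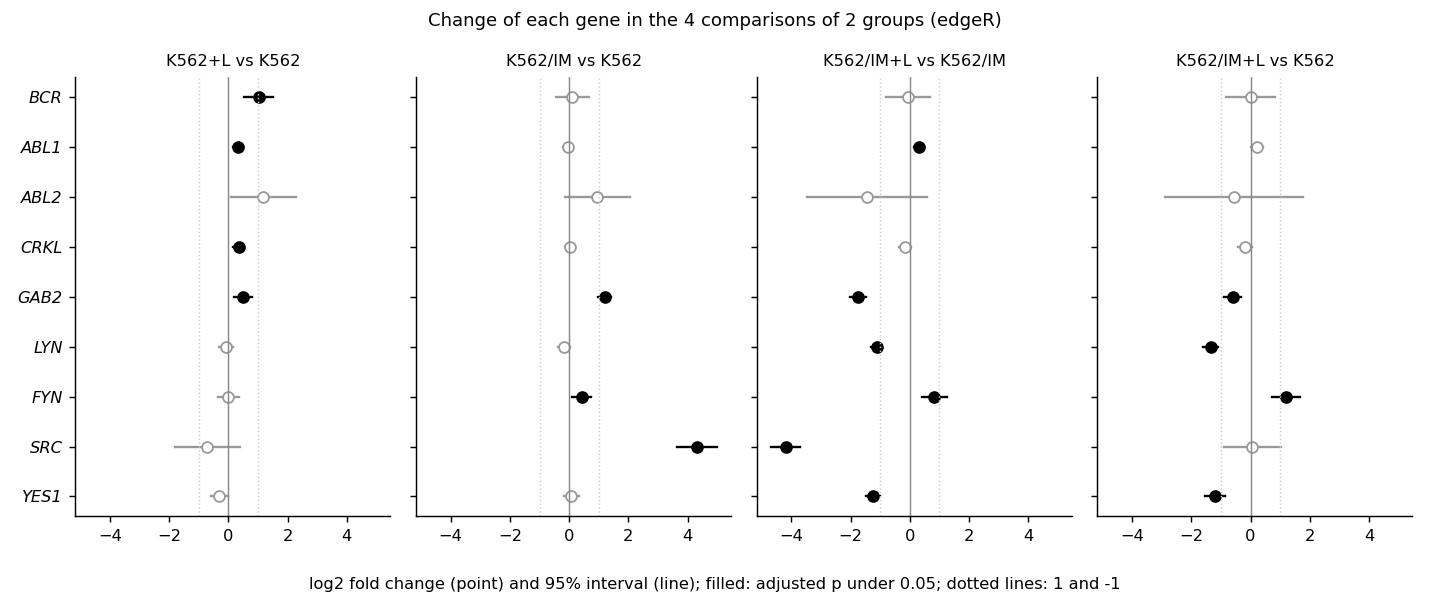
Log2 fold change (horizontal axis, points) with its 95% interval (lines) for each gene in the 4 comparisons of 2 groups, where filled points passed at an adjusted p under 0.05 and dotted lines stand at 1 and -1. The point of SRC lies at 4.31 for K562/IM against K562 and at -4.20 for K562/IM+L against K562/IM, and the intervals of ABL2 are the widest in both comparisons that include K562/IM+L-labelled libraries.

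In K562/IM+L-labelled libraries, most of the SRC family and GAB2 were lower than in untreated K562/IM, while FYN and ABL1 were higher. Of the 9 genes, 2 rose and 4 fell, where 66.8% of the 13727 genes tested passed, 33.2% higher and 33.6% lower, so that 6 of 9 is near the share of all genes. The 4 that fell also exceeded an absolute log2 fold change of 1, against 28.5% of all. The median change of the 9 was -1.12, against -0.0069 over all genes tested. This comparison and the previous one share the K562/IM libraries, so a library of K562/IM that is high for a gene raises the one change and lowers the other.

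SRC stood at 1.64, 1.11 and 0.957 CPM in K562/IM+L-labelled libraries, or 130, 79 and 90 counts. It fell by 4.20 on the log2 scale (SE 0.209, adjusted p = 3.23e-06), to levels within the range of the K562 libraries. GAB2 stood at 51.7, 48.3 and 62.4 CPM and fell by 1.75 (log2, SE 0.114, adjusted p = 1.16e-05). All 3 libraries lay below every library of the other groups.

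LYN lies on chromosome 8 from 55879813 to 56014168 and YES1 on chromosome 18 from 721588 to 812546. LYN stood at 43.3, 47.7 and 51.1 CPM in K562/IM+L-labelled libraries and fell by 1.12 (log2, SE 0.0814, adjusted p = 1.94e-05). YES1, a kinase closely related to SRC and FYN, stood at 56.1, 52.0 and 66.1 CPM and fell by 1.24 (log2, SE 0.101, adjusted p = 3.36e-05). For both genes the other 9 libraries all lay above 100 CPM.

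FYN moved the other way. Its level was 66.3, 107 and 88.9 CPM in K562/IM+L-labelled libraries, above every other library, and it rose by 0.82 (log2, SE 0.177, adjusted p = 0.00439). ABL1 stood at 320, 314 and 351 CPM and rose by 0.30 (log2, SE 0.0719, adjusted p = 0.0072). Groups did not overlap for 73.4% of all genes tested in this comparison.

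BCR, CRKL and ABL2 did not pass. BCR stood at 75.8, 62.2 and 145 CPM, and its change of -0.054 had a 95% interval from -0.80 to 0.69. CRKL stood at 454, 436 and 515 CPM, all below the K562/IM range of 533 to 537 CPM, and changed by -0.17 (log2, adjusted p = 0.104). ABL2 stood at 35.9, 1.95 and 53.9 CPM, all below every K562/IM library, and changed by -1.45 (log2, SE 0.863, adjusted p = 0.173). Replicate 3 of K562/IM+L-labelled libraries was the highest for both BCR and CRKL, and without it both passed, BCR at -0.51 and CRKL at -0.24. Without replicate 2, ABL2 passed at -0.90.

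While SRC, GAB2, LYN and YES1 fell, 12 of 12 erythroid markers passed as higher in K562/IM+L-labelled libraries than in K562/IM, as did 33.2% of all genes tested. T cell markers summed to 0.978 to 1.25 CPM and fibroblast markers to 1.07 to 1.37 CPM there, against 2.05 to 3.05 CPM and 0.797 to 1.15 CPM in K562. Their part in these changes was not tested.

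Compared with untreated K562, K562/IM+L-labelled libraries had lower LYN, YES1 and GAB2 and higher FYN. Of the 9 genes, 1 was higher and 3 were lower, where 56% of the 13307 genes tested passed, 28.2% higher and 27.8% lower, and the median of the 9 was -0.18 against 0.020. LYN differed by -1.35 (log2, SE 0.109, adjusted p = 6.74e-05), YES1 by -1.21 (SE 0.142, adjusted p = 0.000379) and GAB2 by -0.61 (SE 0.123, adjusted p = 0.00483), and FYN by 1.20 (SE 0.199, adjusted p = 0.00186). LYN, YES1 and FYN, 3 of the 9, exceeded an absolute log2 fold change of 1, against 23.8% of all, and the libraries of the 4 genes did not overlap, as for 63.6% of all. These 4 calls held in each of the 6 fits with 1 library left out. SRC differed by 0.061 (adjusted p = 0.910), BCR by 0.0023 (adjusted p = 0.996), ABL1 by 0.21 (adjusted p = 0.0722), CRKL by -0.18 (adjusted p = 0.163) and ABL2 by -0.56 (adjusted p = 0.656), none of which passed. ABL1 passed in 4 of 8 other fits that kept all libraries, and its adjusted p ranged from 0.00932 to 0.228 over these and the fits with 1 library left out. The libraries of K562 enter this comparison, the first and the second.

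An interaction term fitted to the 12 libraries tested whether the change with the lycorine label was alike in both lines. The change in K562/IM+L-labelled libraries against K562/IM was lower than that of K562+L against K562 for 6 of the 9 genes and higher for 1, where 61.7% of the 13995 genes tested passed, 29.9% higher and 31.7% lower. SRC, GAB2, LYN and YES1, lower in K562/IM+L-labelled libraries than in K562/IM, and BCR and CRKL were lower in this contrast, and FYN was higher. ABL1 rose in both comparisons, by 0.32 and 0.30, and its difference was -0.043 (95% interval -0.25 to 0.17). ABL2 differed by -2.66 (SE 1.12, adjusted p = 0.0575) and did not pass.

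The make-up of the SRC family is described by the share of each kinase. As a share of the summed CPM per kb of the 4 kinases, YES1 made up 51.2% ± 1.86 (SD, n = 3) in K562, 47.2% ± 1.07 in K562+L, 50.02% ± 0.404 in K562/IM and 36.9% ± 4.85 in K562/IM+L-labelled libraries. LYN made up 38.3%, 41.1%, 31.1% and 24.7% in the same order. FYN made up 10.1% ± 1.82, 11.4% ± 1.19, 12.4% ± 1.35 and 37.8% ± 5.96, with its lowest library labelled K562/IM+L at 32.9% and its highest other library at 13.2%. SRC reached 6.52% ± 0.594 in K562/IM and was under 1% in every library of the other groups. The sum of the 4 was 45.9 to 57.6 CPM per kb in K562, 40.9 to 46.9 in K562+L, 53.4 to 55.5 in K562/IM and 27.2 to 33.4 in K562/IM+L-labelled libraries.

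**Figure D3:**
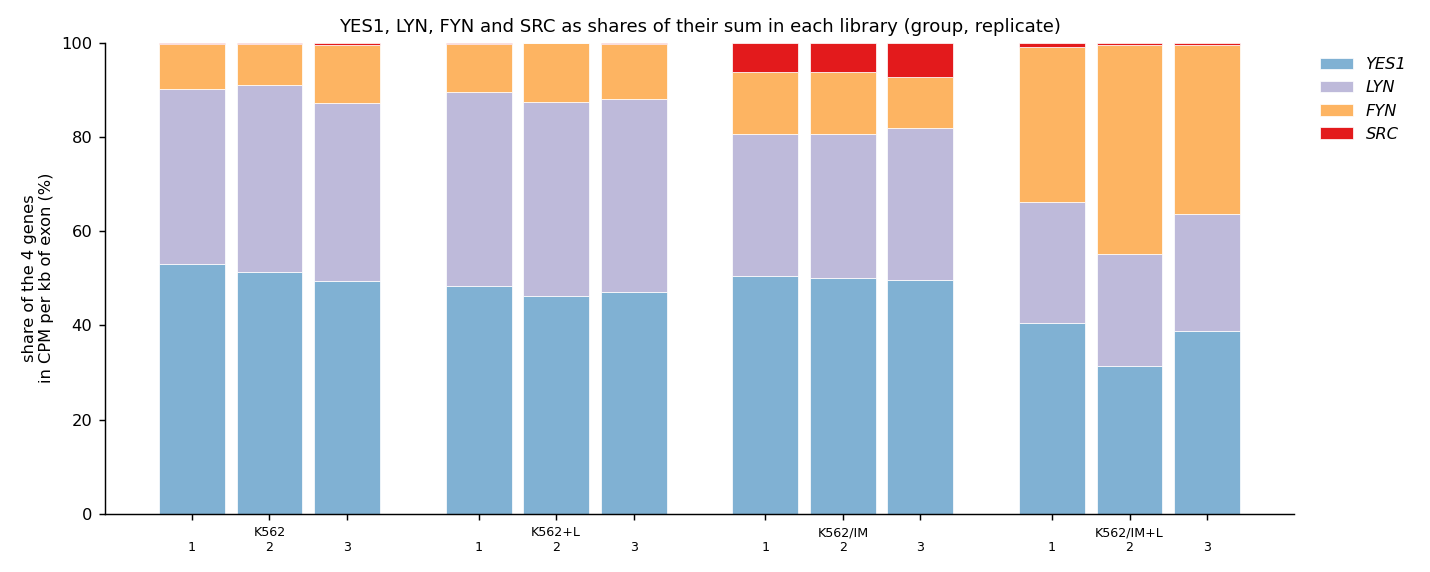
Share of YES1, LYN, FYN and SRC in their summed CPM per kb of exon (vertical axis, %), with 1 bar per library, grouped as named on the horizontal axis with replicate numbers. FYN takes a mean of 37.8% in K562/IM+L-labelled libraries and 10.1% to 12.4% in the other groups, and SRC is visible in K562/IM at a mean of 6.52%.

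Other SRC family and related kinases named here were close to silent. BLK had 0 counts in all 12 libraries, LCK had 4 counts in 1 K562 library and 0 in the rest, and FGR had 0 to 9 counts. FRK had 0 counts in the 3 K562 libraries and 161, 187 and 174 counts in K562/IM, and passed (adjusted p = 6.57e-05), and it had 8, 0 and 25 counts in K562/IM+L-labelled libraries. PTK6 had at most 15 counts and SRMS at most 70 in any library.

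Genes that hold SRC family kinases in check or release them were then examined, since the kinases are switched off by phosphorylation through CSK and MATK and switched on by phosphatases such as PTPN1 and PTPRA. Of those tested, 4 of 12 rose and 2 fell in K562+L, 4 of 11 were higher and 1 lower in K562/IM than in K562, and 2 of 11 rose and 9 fell in K562/IM+L-labelled libraries against K562/IM, where their median change was -0.70 (log2), against 0.18 in K562+L and 0.077 between the untreated lines. Against K562, 3 of 11 were higher and 6 lower in K562/IM+L-labelled libraries. Of all genes tested, 37.3%, 57.1%, 66.8% and 56% passed in these 4 comparisons. The count of 6 in K562+L fell to 1 without K562 replicate 2, K562+L replicate 1 or K562+L replicate 3, the count of 11 to 7 without replicate 1 or 2 of K562/IM+L-labelled libraries, and the count of 9 against K562 to 5 without replicate 1 of those libraries. PTPN22, a phosphatase that counters SRC family kinases in lymphocytes, had 37.8, 41.7 and 32.9 CPM in K562/IM and at most 0.393 CPM in every other library, and passed in both comparisons with K562/IM (adjusted p = 1.88e-05 and 9.62e-07). MATK, which encodes a CSK-related kinase, fell in K562+L by 1.14 (SE 0.195, adjusted p = 0.00408) and in K562/IM+L-labelled libraries by 1.48 (SE 0.113, adjusted p = 2.48e-05). PTPN1 rose in K562+L by 0.32 (SE 0.0831, adjusted p = 0.0186) and was lower in K562/IM+L-labelled libraries than in K562, a difference of -0.68 (adjusted p = 0.000539). CBLB, a ubiquitin ligase for active tyrosine kinases, was 1.68 higher in K562/IM than in K562 (log2, SE 0.103, adjusted p = 1.06e-05).

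Among adaptors and substrates of BCR-ABL, 5 of 21 rose and 2 fell in K562+L, 13 of 23 were higher and 4 lower in K562/IM than in K562, and 5 of 23 rose and 11 fell in K562/IM+L-labelled libraries against K562/IM. Their medians were -0.0083, 0.25 and -0.28 (log2), and against K562 6 of 22 were higher and 8 lower in K562/IM+L-labelled libraries. Beside these counts, 37.3%, 57.1%, 66.8% and 56% of all genes passed in the same comparisons. The count of 7 in K562+L fell to 4 without K562 replicate 2, K562+L replicate 1 or K562+L replicate 2, and that of 14 against K562 to 9 without replicate 1 of K562/IM+L-labelled libraries. STAT5A, the transcription factor phosphorylated downstream of BCR-ABL, stood at 415, 448 and 469 CPM in K562 and at 266, 248 and 239 CPM in K562+L, and fell by 0.83 (log2, SE 0.0834, adjusted p = 0.000532). RAPGEF1, the exchange factor that binds CRKL, rose there by 0.80 (SE 0.0861, adjusted p = 0.000698). VAV1, a blood-cell exchange factor for RAC, went from 11.4, 11.04 and 12.3 CPM in K562 to 47.5, 45.6 and 46.2 CPM in K562/IM and stood at 9.21, 9.78 and 7.45 CPM in K562/IM+L-labelled libraries. It passed in both, at 2.002 (adjusted p = 1.7e-06) and -2.38 (adjusted p = 2.43e-06). INPP5D, the inositol phosphatase SHIP, was at most 0.167 CPM in K562 and K562+L, 30.5 to 32.8 CPM in K562/IM and 0.966 to 1.34 CPM in K562/IM+L-labelled libraries. Like SRC and GAB2, these last genes were highest in the 3 K562/IM libraries.

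Partners of ABL kinases and their cytoskeletal targets showed 3 of 14 higher and 2 lower in K562+L, 6 of 14 higher and 1 lower in K562/IM than in K562, and 1 of 14 higher and 8 lower in K562/IM+L-labelled libraries than in K562/IM. Their medians were 0.19, 0.21 and -0.62 (log2), and against K562 0 of 13 were higher and 6 lower in K562/IM+L-labelled libraries. The numbers passing were near the shares of all genes, 37.3%, 57.1%, 66.8% and 56%, and the count of 5 in K562+L fell to 3 without K562+L replicate 1 or 3. ABI2, an ABL-binding subunit of the WAVE complex, was 1.19 higher in K562/IM (log2, SE 0.0856, adjusted p = 2.38e-05) and changed by -1.23 (SE 0.108, adjusted p = 4.93e-05) in K562/IM+L-labelled libraries. WASF1, another subunit of that complex, stood at 30.2, 29.5 and 28.9 CPM in K562/IM and at 5.19, 4.89 and 5.16 CPM in K562/IM+L-labelled libraries, a change of -2.52 (log2, SE 0.0853, adjusted p = 6.22e-07).

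The neighbourhood of the fusion was examined because the translocation places what follows ABL1 next to what precedes BCR. Within 500 kb, 4 genes lay upstream of BCR and 0 of them reached a group mean of 1 CPM, with a maximum of 0.673 CPM. Of 9 genes downstream of BCR, 4 reached 1 CPM. Upstream of ABL1, 4 of 6 genes reached 1 CPM and downstream 6 of 8. NUP214, a nuclear pore gene downstream of ABL1, had means of 51.4 CPM per kb in K562, 78.7 in K562+L, 66.3 in K562/IM and 46.1 in K562/IM+L-labelled libraries, against 44.5, 55.6, 43.1 and 52.3 CPM per kb for ABL1. FIBCD1, also downstream of ABL1, stood at 34.8, 35.2 and 27.8 CPM in K562/IM+L-labelled libraries and at most 6.71 CPM elsewhere, and was higher than in K562/IM by 7.70 (log2, SE 0.373, adjusted p = 2.89e-06). In K562+L, where BCR and ABL1 rose, 1 of 6 tested neighbours of BCR rose and 1 fell. Of 12 tested neighbours of ABL1, 3 rose and 3 fell, where 37.3% of all genes tested in K562+L passed. These counts pool both sides of each gene. The 2 that passed next to BCR, DRICH1 and CHCHD10, lie downstream of it, and the genes upstream of BCR were too low to show a direction. A shared cause of these changes was not tested. The count for BCR fell from 2 to 1 in each of the 6 fits with 1 library left out.

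**Figure D4:**
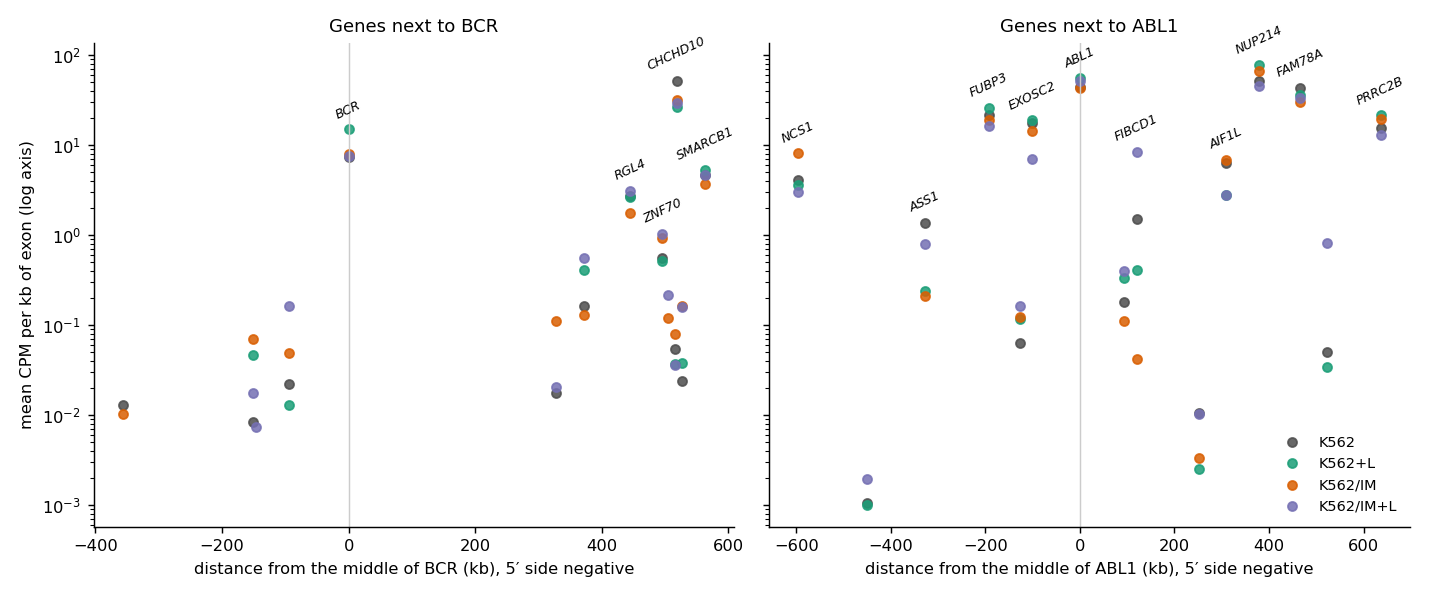
Mean CPM per kb of exon (vertical axis, logarithmic) of BCR, ABL1 and the genes within 500 kb of each, by distance from the middle of BCR or ABL1 in kb (horizontal axis), with 1 colour per group and means of 0 not drawn. The genes upstream of BCR lie far below BCR in every group. Downstream of ABL1, which has means of 43.1 to 55.6 CPM per kb, NUP214 lies at 46.1 to 78.7 and FAM78A at 30.5 to 43.3 CPM per kb.

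ABL2, SRC, BCR and FYN varied more between replicates than the median gene. The largest ratio of highest to lowest library within a group was 27.7 for ABL2, 2.93 for SRC, 2.33 for BCR and 1.61 for FYN, larger than for 88.9%, 82.5%, 79.2% and 66.7% of 13995 genes, while ABL1, at 1.12, exceeded only 4.43%, and the median gene had 1.40. ABL2 and BCR were lowest in the same library in 3 of the 4 groups and highest in the same library in 3 of the 4. BCR also has partial copies elsewhere on chromosome 22, and how the counting placed reads shared with them is not given in the sources used here. GAB2 and YES1 overlap annotated antisense genes, and the use of strand in counting is not stated.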

How the data were processed

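RNA was sequenced by a company in 12 libraries, grouped by the cell line and treatment in their labels. The authors deposited whole-number estimated counts, 1 for each gene symbol in each library, which were not normalized. Their processing notes name FastQC, STAR, StringTie, DESeq2 and the build hg38, and the annotation, strand setting and versions are not given in the sources used here. Of 23289 values from 1 to 25, 67.87% were divisible by 4 or left 1, where 52% of the whole numbers are, so that counting noise may be larger than the totals give. Of 19447 symbols, 19007 matched 1 gene of GENCODE 29 (GRCh38), used for positions and exon lengths. No per-sample columns were left out.

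The 9 genes and the gene lists were chosen with earlier results of these data known. In R 4.3.3, the 6 libraries of each comparison were filtered with filterByExpr (minimum count 10), TMM-normalized and fitted with edgeR 4.0.16 (quasi-likelihood, Benjamini-Hochberg), and the interaction over all 12. The design assumed counts, and the estimated counts were used as deposited, being whole. Genes named from the lists were the 2 with the smallest p per comparison, among those that passed, whose libraries did not overlap. For each of the 9 genes, the 2 genes nearest in centred log2 CPM were also taken. BLK, LCK, FGR, NUP214 and FAM78A were named outside this rule, as a description of their levels. Steps were tested on simulated data. No 2 replicates agreed within sampling noise, and 3 against 3 libraries cannot give an exact p under 0.1. Alternatives covered normalization, DESeq2 1.42.0, low-count filters, counts divided by 4, the libraries fitted, the replicate block and each library left out. A few genes that the naming rule selects, or that the lists hold, are not reported here. Protein and animal data were not analysed.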

Additional observations from a re-analysis of the deposited data

Results flagged for a closer look

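For 7 of the 9 genes the change with the lycorine label differed between the lines by a test of the difference itself, the interaction over all 12 libraries (edgeR quasi-likelihood test, Benjamini-Hochberg adjustment). The same test passed for 61.7% of all 13995 genes. The values are log2 changes of K562/IM+L-labelled libraries against K562/IM minus those of K562+L against K562. SRC differed by -3.51 (SE 0.537, adjusted p = 0.000148), GAB2 by -2.27 (SE 0.177, adjusted p = 7.43e-07) and LYN by -1.06 (SE 0.127, adjusted p = 2.24e-05). YES1 differed by -0.95 (SE 0.162, adjusted p = 0.000336), CRKL by -0.53 (SE 0.113, adjusted p = 0.00156) and FYN by 0.80 (SE 0.259, adjusted p = 0.0182). GAB2 was higher in K562+L than in K562 and lower in K562/IM+L-labelled libraries than in K562/IM. Its libraries did not overlap in either comparison, as for 51.5% and 73.4% of all genes tested. The rise of GAB2 in K562+L passed in 2 of the 6 fits with 1 library left out, and its interaction in 12 of 12. BCR differed by -1.10 (SE 0.427, adjusted p = 0.0418), and this call passed in 4 of the 12 fits with 1 library left out. FYN passed in 11 of those 12 fits, all but the one without replicate 2 of K562/IM+L-labelled libraries. For SRC the change in K562 rests on 28 to 133 counts a library. With 3 libraries in each group, single libraries were not tested for being apart from their group.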

How the results depend on the processing

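Over the alternatives that kept all libraries, 324 of 351 values of the 9 genes kept their direction and side of the threshold, 6 no longer passed, 11 newly passed and 10 changed sign, none of the last having passed. The sign changes were those of FYN in K562+L against K562, at -0.00023 with RLE size factors, -0.046 with upper-quartile normalization, -0.00024 with DESeq2, -0.0027 with 10 counts in every library, -0.0023 with counts divided by 4 and -0.00021 with the replicate block, of ABL1 with upper-quartile normalization, at 0.0015 between the untreated lines and 0.085 in the interaction, and of BCR in K562/IM+L against K562, at -0.0031 without a filter and -0.051 with the replicate block. Leaving out 1 library gave 1 to 5 passing genes in K562+L against K562, 2 to 5 in K562/IM against K562, 6 to 8 in K562/IM+L against K562/IM, 4 to 4 in K562/IM+L against K562 and 6 to 8 in the interaction. Values near 0 also changed sign there, ranging from -0.13 to 0.13 for FYN in K562+L against K562, from -0.083 to 0.38 for BCR, -0.037 to 0.064 for CRKL and -0.020 to 0.18 for YES1 in K562/IM against K562, from -0.51 to 0.17 for BCR in K562/IM+L against K562/IM, and from -0.44 to 0.30 for BCR, -0.22 to 0.44 for SRC and -1.24 to 0.00059 for ABL2 in K562/IM+L against K562. The interaction of BCR no longer passed with upper-quartile normalization (-0.97) or DESeq2 (-1.09), FYN between the untreated lines no longer in 1 fit over all 12 libraries or with the replicate block, and ABL1 and CRKL in K562+L no longer with the replicate block. Newly passing were ABL1 in K562/IM+L against K562 (upper-quartile normalization, DESeq2, 10 counts in every library, 1 fit over all 12 libraries), YES1 in K562+L (upper-quartile normalization, DESeq2, 1 fit over all 12 libraries), and ABL2 with the replicate block in K562+L, between the untreated lines and in the interaction, and in the interaction with counts divided by 4. Of 18 same-numbered pairs, 2 deviated together with r over 0.1 (range -0.23 to 0.15), a check over all genes that cannot exclude pairing or a shared batch. ABL2 was lowest in replicate 2 of every group, at 14.3 CPM in K562, 77.6 in K562+L, 83.0 in K562/IM and 1.95 in K562/IM+L-labelled libraries. With the replicate block, 3, 3, 6, 4 and 8 of the 9 genes passed in the order above, and 3126 in place of 4821 of all genes in K562+L against K562. The causes were not tested. Depth limits mainly SRC outside K562/IM.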

Other observations

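Among the SYK, TEC and FAK families of tyrosine kinases, 5 of 8 genes tested were higher and 2 lower in K562/IM than in K562, and 2 of 9 rose and 4 fell in K562/IM+L-labelled libraries against K562/IM. In K562+L, 1 of 7 rose and 3 fell, a count that became 2 without K562 replicate 2, K562+L replicate 1 or K562+L replicate 3. Of all genes tested, 57.1%, 66.8% and 37.3% passed in these comparisons. BMX, a TEC family kinase, stood at 1.85, 2.37 and 1.68 CPM in K562 and at 30.4, 32.8 and 30.99 CPM in K562/IM, higher by 3.99 (log2, SE 0.144, adjusted p = 1.05e-06). It fell in K562+L by 3.30 (SE 0.378, adjusted p = 0.000854) and in K562/IM+L-labelled libraries by 2.74 (SE 0.143, adjusted p = 4.05e-06). PTK2B, a FAK family kinase also called PYK2, moved in the opposite way between the lines, at 80.9, 80.8 and 81.5 CPM in K562 and 38.9, 38.7 and 41.5 CPM in K562/IM, and stood at 77.6, 75.8 and 76.5 CPM in K562/IM+L-labelled libraries.

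Of other genes with a RhoGAP or RhoGEF part, as BCR has, 5 of 10 were higher and 1 lower in K562/IM than in K562, and 1 of 11 rose and 7 fell in K562/IM+L-labelled libraries against K562/IM. In K562+L, 3 of 10 rose and 0 fell, and 5 passed without K562 replicate 1. These counts were near the shares of all genes that passed, 57.1%, 66.8% and 37.3%. ABR, the closest relative of BCR, stood at 4.96, 5.71 and 4.63 CPM in K562, at 20.1, 18.1 and 19.2 CPM in K562/IM and at 6.49, 6.18 and 6.56 CPM in K562/IM+L-labelled libraries. It was higher in K562/IM by 1.91 (log2, SE 0.112, adjusted p = 9.01e-06), where BCR itself did not pass. RACGAP1, which acts in cytokinesis, rose in K562+L by 0.54 (SE 0.0795, adjusted p = 0.00232).

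Genes among the 2 whose levels followed each of the 9 most closely over the 12 libraries, by the root-mean-square (RMS) difference of centred log2 CPM among 13994 genes, are given as a description. They were EP300 (RMS 0.198) and KAT6A (0.204) for BCR, SP2 (0.0683) for ABL1, and ZNF214 (0.604) and COL10A1 (0.629) for ABL2. ZNF214 and COL10A1 were low, with group means of 0.386 to 1.79 CPM and 0.120 to 0.486 CPM. For CRKL CBLL1 (0.0531) is given, and for GAB2 they were TNRC18 (0.114) and UHRF1BP1L (0.131). For the SRC family they were SCO1 (0.0615) and MCCC2 (0.0639) for LYN, KLHDC2 (0.197) and ZNF225 (0.198) for FYN, SULT1A1 (0.499) and CD52 (0.510) for SRC, and PMS1 (0.0891) and LANCL3 (0.118) for YES1. Outside K562/IM the group means of SULT1A1 were 0.202 to 0.743 CPM. EP300 and KAT6A encode histone acetyltransferases, and EP300 stood at 66.1 ± 15.8 CPM (SD, n = 3) in K562, 141 ± 21.4 in K562+L, 90.5 ± 6.95 in K562/IM and 78.5 ± 26.3 in K562/IM+L-labelled libraries.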
